A study of Mus musculus and Homo sapiens with 12 samples.

Results

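The noncoding RNAs made by RNA polymerase III (Pol III) outside the tRNA and 5S rRNA genes were followed here through an m5C immunoprecipitation of chromatin-associated RNA (caRNA): the RNase MRP RNA (RMRP), the RNase P RNA (RPPH1), 7SK (RN7SK), 7SL (RN7SL1 and RN7SL2) and the vault RNAs (VTRNA1-1, VTRNA1-2, VTRNA1-3 and mouse Vaultrc5). The members were taken by name and found by Ensembl identifier in the gene tables. Of those 9 names, RMRP, RPPH1 and RN7SK are spelled alike apart from case in mouse and human. The 9 names stood for 13 gene identifiers, 5 of 54446 in mouse and 8 of 58676 in human, since mouse Rmrp has 2 records. Mouse 7SL genes (Rn7s1, Rn7s2 and Rn7s6) and the human copy RN7SL3 carry other names and were added as counterparts after their counts had been seen.

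Pol III transcribes short genes at high rate, and its noncoding products act inside ribonucleoproteins. RMRP and RPPH1 are the catalytic RNAs of RNase MRP and RNase P, which process rRNA and tRNA precursors. 7SK holds the elongation kinase P-TEFb inactive at chromatin, 7SL is the scaffold of the signal recognition particle that targets nascent secretory proteins, and vault RNAs are small RNAs of the cytoplasmic vault particle. NSUN2, an RNA cytosine methyltransferase, is known to place m5C (5-methylcytosine) on vault RNAs.

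The cells were mESC, which are mouse embryonic stem cells, and K562, an established human leukaemia line, both wild type. Each gave 3 libraries of fragmented caRNA before pull-down (Input) and 3 of fragments bound by an anti-m5C antibody (IP), 12 libraries in all. The mESC were grown with LIF, CHIR99021 and PD0325901 and passaged on gelatin to remove feeder cells. One growth text covers both lines and names puromycin in the K562 medium, and no deletion or other treatment is given for any group. The study's text calls its replicates biological, while nothing in the labels says that they were separate cultures, so p-values measure the spread between these libraries, which may be technical. The antibody field of the labels went against the titles, with none entered for mESC IP and the m5C antibody entered for K562 Input, and groups follow the titles.

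Input libraries were deep and IP libraries shallow. Reads assigned to genes numbered at least 29007088 in every mESC Input library but at most 592324 in mESC IP, and at least 10477119 in K562 Input but at most 111286 in K562 IP. A gene with 3 counts therefore stood at 5.06 to 6.34 CPM (counts scaled to a common total of gene counts) in mESC IP and at 27.0 to 32.2 CPM in K562 IP. Of the counted records, 26.8% to 27.0% in mESC IP and 31.6% to 32.4% in K562 IP were set aside as aligned to more than 1 place, beside 6.35% to 6.66% and 8.72% to 8.76% in the Input libraries of mESC and K562. Pou5f1, Nanog, Zfp42 and Esrrb were present in every mESC Input library, whereas Sox2 was at 0. All 4 feeder fibroblast markers had counts in mESC Input, from 0.363 CPM for Thy1 to 30.2 CPM for Col1a1, and in bulk libraries fewer cells of a type and less RNA per cell cannot be told apart. In K562 Input GATA1, TAL1, KLF1 and HBG1 were present and HBG2 and HBE1 were at 0, and the 3 lymphoid markers reached at most 1.1 CPM.

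The 3 human vault RNAs are printed because their own letters show how alike they are and where the internal Pol III promoter lies. They stand close together on GRCh38, VTRNA1-1 at chr5:140711275-140711373, VTRNA1-2 at chr5:140718925-140719013 and VTRNA1-3 at chr5:140726158-140726246, all on the plus strand and each a single exon. Capitals mark the 9 bases that match GTTCGANNC, part of the B box, the internal element bound by TFIIIC. These letters were settled on after matches of longer forms had been seen.
VTRNA1-1: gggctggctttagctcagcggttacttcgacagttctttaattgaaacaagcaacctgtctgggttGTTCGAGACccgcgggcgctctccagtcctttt
VTRNA1-2: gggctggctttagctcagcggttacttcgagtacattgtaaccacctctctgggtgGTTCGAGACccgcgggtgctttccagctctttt
VTRNA1-3: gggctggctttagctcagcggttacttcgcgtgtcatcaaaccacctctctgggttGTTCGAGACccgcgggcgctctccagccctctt
The match lay at bases 67 to 75 of VTRNA1-1 and at bases 57 to 65 of both others, and at bases 111 to 119 of mouse Vaultrc5. None of the other 9 member identifiers held it on either strand, and neither did most short RNAs, since 18 of 5736 human transcripts of 80 to 150 bases (0.314%) had a match. VTRNA1-2 and VTRNA1-3 were the closest pair, with 87.6% identity, against 81.8% for VTRNA1-1 with VTRNA1-2 and 83.8% for VTRNA1-1 with VTRNA1-3.

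The other sequence shown is the part of mouse Rmrp that lay under m5C IP peaks, taken from GRCm38 and written 5′ to 3′ on the strand of the gene. Capitals mark bases inside the peak of all 3 IP libraries, and lower case marks bases covered in 1 or 2 of them. The stretch is chr4:43492791-43493063 on the minus strand.
Rmrp peak: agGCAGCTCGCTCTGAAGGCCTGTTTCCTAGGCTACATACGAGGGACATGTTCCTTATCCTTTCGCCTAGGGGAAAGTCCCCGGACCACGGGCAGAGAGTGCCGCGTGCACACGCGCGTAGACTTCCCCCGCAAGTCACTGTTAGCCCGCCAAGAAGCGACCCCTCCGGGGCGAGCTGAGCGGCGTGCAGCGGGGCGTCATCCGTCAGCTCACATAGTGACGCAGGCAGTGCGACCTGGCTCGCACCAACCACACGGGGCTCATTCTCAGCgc
The shared core was 269 bases long, and cytosine made up 33.8% of it, beside 33.9% of the whole ribozyme record.

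Peaks had been called in each mESC IP library on its own and on each strand, and lists of 11012, 15235 and 15630 peaks, of median width 150 bp, were deposited. Of the 4 mouse member genes, Rmrp alone lay under a peak of its own strand, and it did so in all 3 libraries. The peak spanned 271, 270 and 272 bp and covered 98.2%, 98.5% and 98.9% of the 271 bp ribozyme record of Rmrp (chr4:43492788-43493058), wider than 95.2% to 95.5% of the peaks in the same list. Rn7sk, Rpph1 and Vaultrc5 had no peak in any list, on either strand or within 150 bp. A same-strand peak in all 3 libraries was found for 595 of 54409 annotated mouse genes (1.09%), and for 10 of 3457 genes of 200 to 400 bp (0.289%).

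Rn7s1 and Rn7s2 each had a peak in all 3 lists as well, but over the middle of the gene rather than its whole length. In Rn7s1 (chr12:69159295-69159594) the peaks ran over bases 30 to 185, 36 to 191 and 32 to 191. In Rn7s2 (chr12:69361182-69361481) they ran over bases 31 to 186, 33 to 188 and 31 to 188. The ends thus moved by at most a few bases between libraries, and 52.0% to 53.3% of either gene was covered. Rn7s1 and Rn7s2 are identical over all 300 bases, and their 31-base windows occur in up to 8 places in the genome. Their 2 peaks thus cannot be told apart as signals of 1 gene, of both or of further copies. Rn7s6 (chr6:69516339-69516629), with 85.0% identity to Rn7s2, lay under a 150 bp peak of the opposite strand in replicates 2 and 3 and under none in replicate 1.

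The 10 short genes with such peaks were few in kind. Besides both Rmrp records, Rn7s1 and Rn7s2 they were 6 records of U3, the small nucleolar RNA of rRNA processing, namely Rnu3b4, Rnu3b2 and Gm23927, each entered under 2 identifiers. Among short genes with as many Input counts as Rn7s1 or more, 2 of 16 (12.5%) had peaks, and these were Rn7s1 and Rn7s2.

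**Figure D1:**
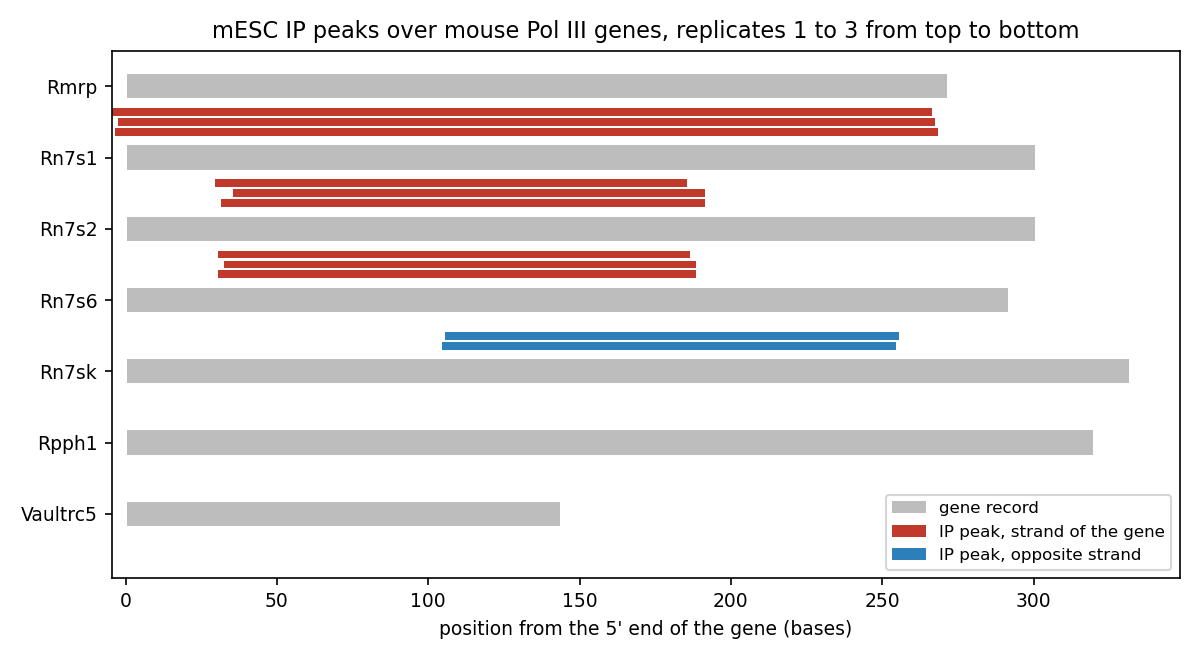
Positions of mESC IP peaks (coloured bars, 1 row per replicate, replicates 1 to 3 from top to bottom) over 7 mouse Pol III genes (grey bars), in bases from the 5′ end of each gene. Peaks spanned nearly all of Rmrp and 52.0% to 53.3% of Rn7s1 and Rn7s2, and Rn7sk, Rpph1 and Vaultrc5 had none.

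The gene counts gave another picture for Rmrp. Both Rmrp records, ribozyme and lincRNA (chr4:43492783-43493063), were at 0 in all 6 mESC libraries, Input and IP alike. At this depth 0 counts over the 3 IP libraries allow up to 0.000181% of gene counts, if reads of the gene are assigned to it. Since peaks lay over Rmrp, this is no bound on the Rmrp RNA in IP. The records cover each other: 100% of the ribozyme record and 96.4% of the lincRNA record lie in an exon of the other on the same strand, and Ccdc107 overlaps them on the opposite strand. None of the 31-base windows of Rmrp recurs elsewhere in the mouse genome. Counters of the HTSeq kind can set aside reads that fall in exons of more than 1 gene, and the mode used here is not given in the sources used here. Of all 10 short genes with peaks, the 8 entered under 2 identifiers were at 0 in every library, and the 2 with counts were Rn7s1 and Rn7s2. Whether doubled records account for the zeros was not tested.

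Human RMRP (chr9:35657754-35658017, minus strand) was also at 0 in all 6 K562 libraries. That allows up to 0.000961% of gene counts over the 3 IP libraries, again only if reads of the gene are assigned to it. Here no base of the gene lies in an exon of another gene on the same strand in the annotation used, GENCODE 44. The same-strand overlap named for mouse Rmrp was thus not seen for the human gene, but the study counted with another release. Of its windows 0.427% recur, so nearly all are unique, as in mouse Rmrp. Mouse and human RMRP are 80.8% identical. CCDC107, the nearest protein-coding gene, had 37, 38 and 40 counts in K562 Input and 0 in each IP library.

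RNase P RNA was close to absent from both tables. Mouse Rpph1 (chr14:50807449-50807767, minus strand) had 3, 2 and 2 counts in Input and 0, 1 and 0 in IP. The ratio of IP to Input CPM was 8.36 with an exact 95% counting interval of 0.186 to 65.1, so nothing can be said of a difference. An equal share would have given 0.12 counts in IP. Human RPPH1 (chr14:20343075-20343407) was at 0 in all 6 libraries. On the same strand, 73.0% of Rpph1 lies in exons of Ccnb1ip1 and 100% of RPPH1 in the lncRNA ENSG00000259001, which itself had 1 count in the 6 K562 libraries. Ccnb1ip1, a protein-coding gene with 4518, 5513 and 5729 Input counts and 28, 32 and 20 IP counts, had a CPM ratio of 0.297 (0.235 to 0.37), and reads of Rpph1 that were assigned to it cannot be told apart.

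Rn7sk was the abundant member. It had 5888, 6237 and 6416 counts in mESC Input and 90, 163 and 155 in IP. As shares these are 203, 189 and 185 CPM in Input and 190, 277 and 262 CPM in IP, 192 ± 9.63 against 243 ± 46.4 CPM (SD, n = 3). IP replicate 1 lay inside the Input range and the other 2 IP libraries lay above it, so the groups overlapped. Per kilobase, Rn7sk stood at 580 ± 29.1 CPM in Input, rank 6 of 54409 genes. The gene (chr9:78175303-78175633, minus strand) is a single exon shared with no other gene, and 72.8% of its 31-base windows recur elsewhere, up to 13 times.

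The direction of Rn7sk depended on how libraries were scaled. By library size alone, IP over Input was 1.29 (95% counting interval 1.16 to 1.42), or 0.36 on the log2 scale (edgeR adjusted p = 0.0174). With TMM factors, which set the bulk of genes level and were 1.39 to 1.42 in IP and 0.705 to 0.722 in Input, Rn7sk was lower in IP at a log2 difference of -0.61 (SE 0.11, edgeR adjusted p = 6.86e-05). The median gene stood at -0.17 with TMM factors and at 0.80 by library size, so that relative to the median Rn7sk stood at -0.44 under both. With Input counts thinned to IP depth it was 0.74 higher in IP (edgeR adjusted p = 0.001) and 0.59 above the median. At -0.61 Rn7sk was at percentile 44.6 of the tested genes, near the middle.

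Human RN7SK (chr6:52995621-52995948, plus strand), 98.2% identical to the mouse gene, was at 0 in all 6 K562 libraries. A second record named 7SK covers 100% of it on the same strand and was at 0 too. Of its 31-base windows 89.6% recur elsewhere in the human genome, up to 28 times. Only Rn7sk among the 7SK genes could thus be compared between IP and Input, and with 0 human counts no value is given for a difference between the lines. GSTA4, the nearest protein-coding gene to RN7SK, had 15, 13 and 16 Input counts and no IP count. Ick, the neighbour of Rn7sk in mouse, had a CPM ratio of 1.2 (0.966 to 1.48).

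The 7SL records that received counts were not the same in the 2 lines. RN7SL1 (chr14:49586580-49586878, plus strand) and RN7SL2 (chr14:49862550-49862849, minus strand) were at 0 in all 6 K562 libraries. They are 98.3% identical, and 100% and 95.6% of their windows recur, the commonest in 41829 places, as 7SL is the source of the Alu repeats. RN7SL1 shares no exon with another gene of its strand but sits in an intron of RPS29. RN7SL2 lies wholly in exons of the lncRNA ENSG00000282885, which had 6, 9 and 12 Input counts and no IP count.

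RN7SL3 (chr14:49853616-49853914, minus strand), 97.7% identical to RN7SL1, did receive counts. It had 16, 11 and 12 counts in Input and 10, 5 and 3 in IP, or 1.35, 0.954 and 1.15 CPM against 92.6, 44.9 and 32.2 CPM. Every IP library lay above every Input library, but 3 counts in a K562 IP library already stand at 27.0 to 32.2 CPM. RN7SL3 was added after its counts had been seen and passed the count filter only through its IP libraries. The share of all genes whose groups did not overlap is not given, for this or any later gene or sum. The CPM ratio was 50.1 (27.0 to 89.6). Reads of near-identical copies can be assigned to any of them, so this is a value for reads counted at RN7SL3 and not for that gene's own transcript.

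The remaining human copies moved the same way. Over all 680 records named RN7SL, mostly pseudogenes, summed counts were 180, 165 and 138 in Input and 25, 20 and 24 in IP, which is 15.2, 14.3 and 13.2 CPM against 232, 180 and 258 CPM. The ratio was 15.5 (11.9 to 20) and the groups did not overlap (exact permutation test, two-sided p = 0.1, the smallest that 3 against 3 can give). Without RN7SL3, a choice made after seeing the data, it was 12.5. Only 103 records had any count and 26 had an IP count, and RN7SL3, RN7SL4P and RN7SL767P held 36 of the 69 IP counts. The 3 records that passed the count filter, RN7SL3, RN7SL4P and RN7SL5P, did so only through their IP libraries, so they had to be higher there and no call is read from them.

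Copies of 7SK, taken as a sum, behaved alike, though only 42 records had any count and 8 had an IP count. Over 293 records named RN7SKP, counts were 49, 67 and 54 in Input and 7, 9 and 7 in IP, or 4.13, 5.81 and 5.15 CPM against 64.9, 80.9 and 75.2 CPM. The ratio was 14.7 (9.06 to 22.8) with no overlap of the groups (exact permutation p = 0.1, two-sided, the smallest possible). One record, RN7SKP203, passed the filter, again only through its IP libraries. These sums rest on 69 and 23 IP counts, and whether the larger share of reads aligned to several places in IP has a part in them was not tested.

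In mESC the 7SL genes themselves received counts, but 100% of the windows of Rn7s1 and of Rn7s2 recur elsewhere in the genome. Reads aligned to several places were set aside, at 26.8% to 27.0% of counted records in mESC IP and 6.35% to 6.66% in mESC Input. Whether this has a part in the mouse 7SL values, for single genes or summed, was not tested. Rn7s2 had 190, 196 and 218 counts in Input and 20, 14 and 22 in IP, which is 6.55, 5.93 and 6.27 CPM against 42.2, 23.8 and 37.1 CPM. All 3 IP values were above all Input values, and the log2 difference was 1.47 (SE 0.28, edgeR adjusted p = 0.000148), or 1.64 above the median gene. That is percentile 63.4 of the tested genes, 39.9% of which were called higher in IP. The share of all genes whose groups did not overlap is not given here. Rn7s1 had 118, 130 and 122 Input counts and 8, 7 and 4 IP counts, or 4.07, 3.93 and 3.51 CPM against 16.9, 11.9 and 6.75 CPM. Its groups did not overlap in CPM either. Yet its log2 difference of 0.62 (SE 0.41), at percentile 57.4 of the tested genes, did not pass the test (edgeR adjusted p = 0.177). It passed by library size alone, at 1.59 (edgeR adjusted p = 0.00402) where the median gene stood at 0.8, and in DESeq2, at 0.78 (adjusted p = 0.0357). It did not pass with RLE factors (0.79, edgeR adjusted p = 0.0931) or with the replicate block (0.6, edgeR adjusted p = 0.341). Without the count filter it stood at 0.18 (edgeR adjusted p = 0.775), or -0.42 relative to the median gene. Since the genes are identical in sequence, the split of reads between them is uncertain. CPM ratios were 5.43 (4.05 to 7.14) for Rn7s2 and 3.01 (1.79 to 4.76) for Rn7s1.

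Rn7s6 was sparse, with 9, 2 and 9 counts in Input and 1, 1 and 0 in IP, and its ratio of 5.85 (0.663 to 24.1) spanned 1. Summed over the 3 genes, mouse 7SL had a ratio of 4.53 (3.55 to 5.72, exact permutation p = 0.1, two-sided, the smallest possible). Of the nearest protein-coding genes, Rps29, next to Rn7s1, had a ratio of 0.993 (0.668 to 1.42) and Nemf, next to Rn7s2, one of 0.384 (0.309 to 0.472). Rpia, the nearest to Rn7s6 but 1249091 bp away, had one of 2.16 (1.67 to 2.74). In K562 RPS29 had a ratio of 3.4 (2.26 to 4.92) and NEMF one of 0.653 (0.443 to 0.928).

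A ratio taken within each library needs no scaling. This measure was chosen after the values had been seen. Per 100 counts of Rn7sk, Rn7s2 had 3.23, 3.14 and 3.4 counts in Input and 22.2, 8.59 and 14.2 in IP. The means differed 4.61-fold (exact permutation p = 0.1, two-sided, the smallest possible). The groups did not overlap, but how often that holds for other genes is not given. For Rn7s1 the values were 2.0, 2.08 and 1.9 in Input and 8.89, 4.29 and 2.58 in IP, 2.63-fold apart with the same p = 0.1 by the exact test. The Rn7s1 fold came down to 1.72 when IP replicate 1, the library with the fewest Rn7sk counts, was left out, and the Rn7s2 fold to 3.5.

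**Figure D2:**
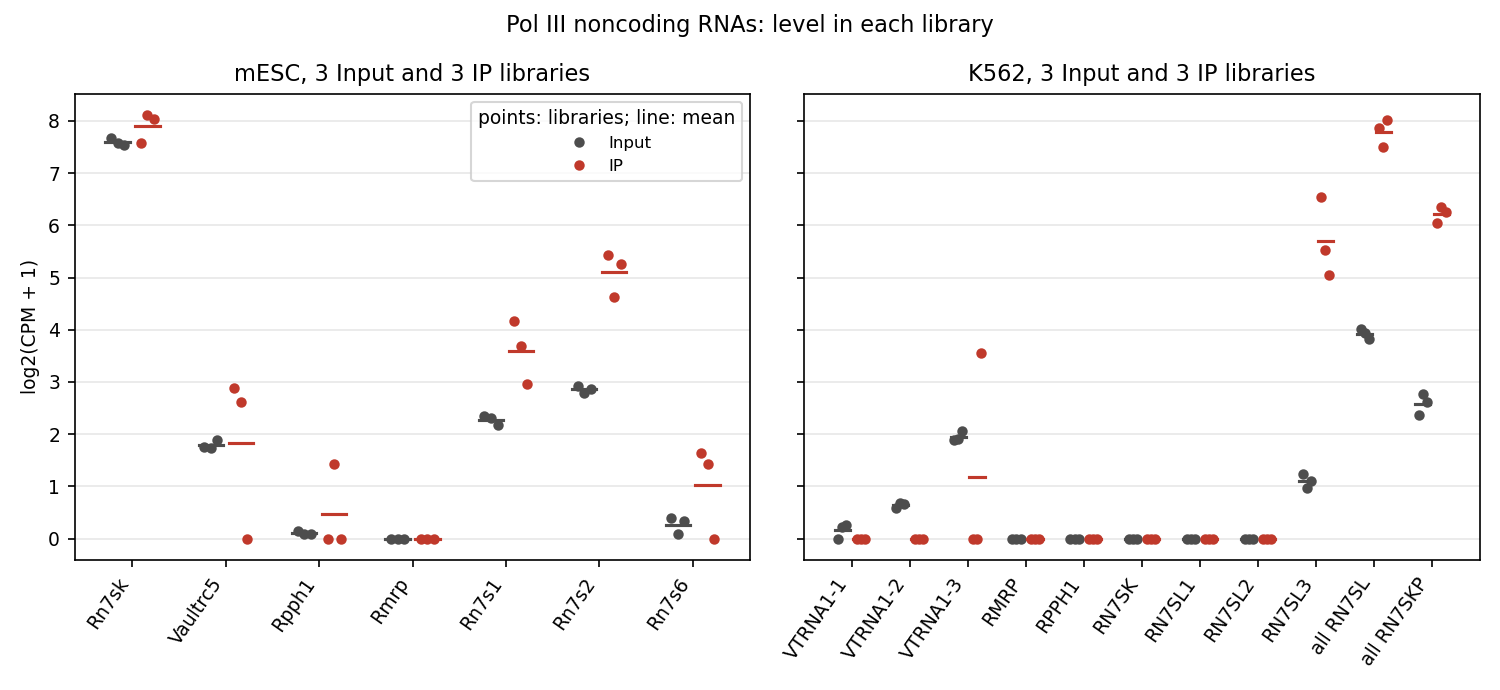
Level of each member, of the 7SL counterparts and of the summed RN7SL and RN7SKP records in every library, as log2(CPM + 1), with points for libraries and lines for means of 3. Rn7s1, Rn7s2, RN7SL3 and both summed families lay higher in every IP than in every Input library on this scale, Rn7sk overlapped and was lower in IP with TMM factors, and RMRP, RPPH1, RN7SK, RN7SL1 and RN7SL2 sat at 0. RN7SL3 and the mouse 7SL genes were added after their counts had been seen, and the share of all genes without overlap is not given.

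Vault RNAs were detected in both lines but too thinly in IP to compare. Vaultrc5 had 69, 77 and 94 counts in mESC Input and 3, 3 and 0 in IP, or 2.38, 2.33 and 2.7 CPM against 6.34, 5.1 and 0 CPM. An equal share would have given 4.1 IP counts. IP replicates 1 and 2 lay above the Input range and replicate 3 at 0, and the CPM ratio was 1.46 (0.532 to 3.23). The log2 difference of -0.41 (SE 0.68) did not pass the test (edgeR adjusted p = 0.579), and it stood at 0.56 by library size alone and at 0.25 without IP replicate 3. Its 31-base windows are all unique in the genome and no other gene shares its exon. Zmat2, the nearest protein-coding gene, had 18 IP counts and a ratio of 0.415 (0.246 to 0.658).

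Of the human vault RNAs, VTRNA1-3 had the most counts, with 32, 32 and 33 in Input and 0, 0 and 1 in IP, or 2.7, 2.77 and 3.15 CPM in Input and 10.7 CPM in the single IP library with a read. The ratio was 1.12 (0.028 to 6.38), and the log2 difference of -0.05 (SE 1.49) did not pass the test (edgeR adjusted p = 0.984) and was 0.16 by library size alone. VTRNA1-2 had 6, 7 and 6 Input counts and VTRNA1-1 had 0, 2 and 2, and neither had an IP count. At an equal share 0.894, 0.175 and 0.0369 IP counts would have come from VTRNA1-3, VTRNA1-2 and VTRNA1-1, so a difference was not detectable at this depth. VTRNA1-1 lies wholly in an exon of another record of its strand, ENSG00000292256, whereas VTRNA1-2 and VTRNA1-3 share no exon.

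Per kilobase in Input, the order in K562 was VTRNA1-3 at 32.3 ± 2.72 CPM, VTRNA1-2 at 6.31 ± 0.578 and VTRNA1-1 at 1.23 ± 1.07 (SD, n = 3), with RN7SL3 at 3.84 ± 0.66 between the last pair. In every Input library VTRNA1-3 exceeded VTRNA1-2, and VTRNA1-2 exceeded VTRNA1-1. In mESC the order was Rn7sk at 580 ± 29.1, Rn7s2 at 20.8 ± 1.03, Vaultrc5 at 17.3 ± 1.42, Rn7s1 at 12.8 ± 0.97, Rn7s6 at 0.721 ± 0.453 and Rpph1 at 0.231 ± 0.0805 CPM per kilobase. Levels of Vaultrc5 and VTRNA1-3 are not comparable across the lines, since the tables differ in species and depth.

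**Figure D3:**
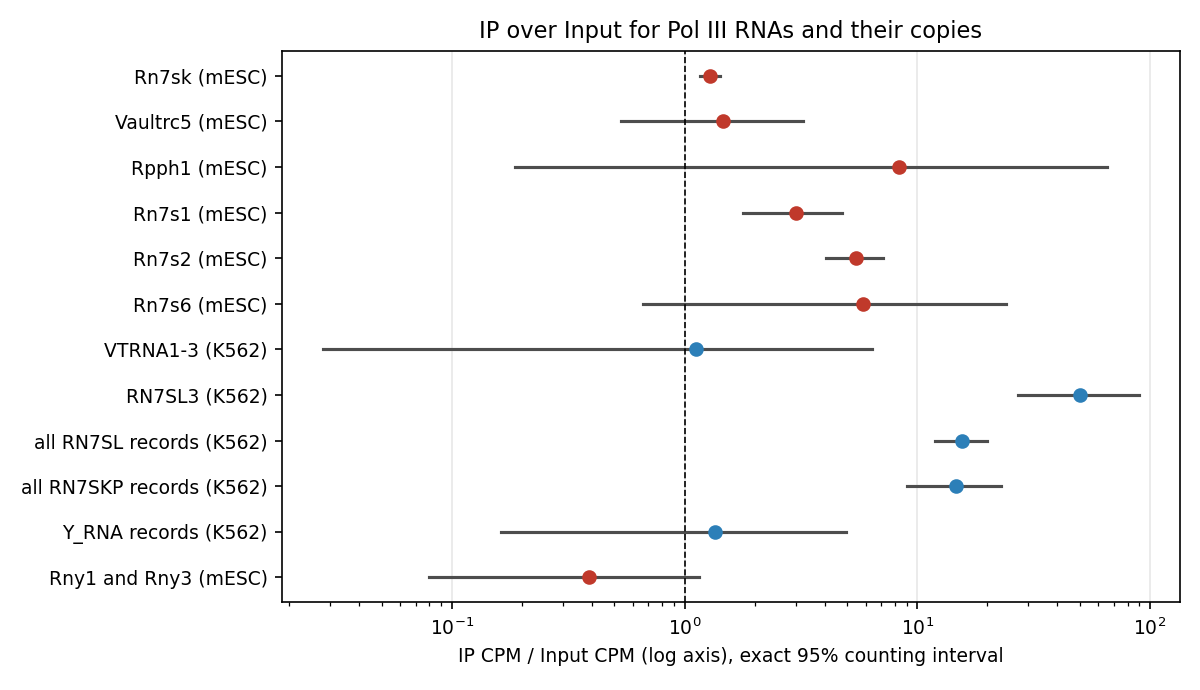
Ratio of IP to Input CPM, from counts summed over 3 libraries each, with exact 95% counting intervals on a log axis and a dashed line at 1. RN7SL3, the summed RN7SL and RN7SKP records, Rn7s1 and Rn7s2 lay wholly above 1, as did Rn7sk on this scale but not with TMM factors, and the vault RNAs, Rpph1 and Rn7s6 spanned 1. By library size alone the median mESC gene stood at 0.80 on the log2 scale, above the line, and Rn7sk below that median. RN7SL3 and the mouse 7SL genes were added after their counts had been seen.

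Tested as genes, 3 of the 13 member identifiers passed the filter on low counts: Rn7sk and Vaultrc5 in mESC and VTRNA1-3 in K562. One of the 2 mESC members was called, lower in IP with TMM factors, beside 42.1% of 20244 tested genes called lower and 39.9% called higher (82.0% in all). VTRNA1-3 was not called, beside 31.9% of 14522 K562 genes, in edgeR (unadjusted p = 0.971) or in DESeq2. Without the filter, Rpph1, VTRNA1-1 and VTRNA1-2 could be fitted but none passed (edgeR adjusted p = 0.547, 0.914 and 0.811). Summed over its members, mESC gave 0.0205%, 0.0191% and 0.0187% of gene counts in Input and 0.0196%, 0.0284% and 0.0262% in IP. The groups overlapped and did not pass the exact permutation test (two-sided p = 0.2). With all counted records as the denominator the shares were 0.0157% and 0.00701%, lower in IP (exact permutation p = 0.1, the smallest possible). In K562 the members took 0.000356% of gene counts in Input and 0.000358% in IP, the latter from a single read (exact permutation p = 1.0).

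Across both species most member identifiers at 0 shared bases with an exon of another gene on their strand, in releases other than the study's. Recurring windows occurred among members at 0 and among genes with counts. RN7SK, RN7SL1 and RN7SL2, at 0, had 89.6%, 100% and 95.6% recurring windows. Both Rmrp records and RPPH1 had 0% recurring windows, whereas Rn7s1 and Rn7s2, with 100%, had 370 and 604 Input counts. Of the 7 member identifiers at 0 in every library, 5 (both Rmrp records, RPPH1, RN7SK and RN7SL2) had at least 96.4% of their bases in exons of another gene on the same strand, RN7SL1 consisted wholly of recurring windows, and RMRP had neither feature. VTRNA1-1, fully covered in the annotation used here, had 4 counts. The record covering it was not among the counted genes, unlike those covering RPPH1, RN7SK and RN7SL2. Among mouse genes of at most 400 bp, 572 of 587 that were fully covered in this way were at 0 in all 6 libraries (97.4%), beside 7949 of 10947 with no such base (72.6%). Among human genes the figures were 809 of 892 (90.7%) and 10817 of 12911 (83.8%). Whether either feature has a part in a zero was not tested, and a zero in these tables is not read here as absence of the RNA.

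**Figure D4:**
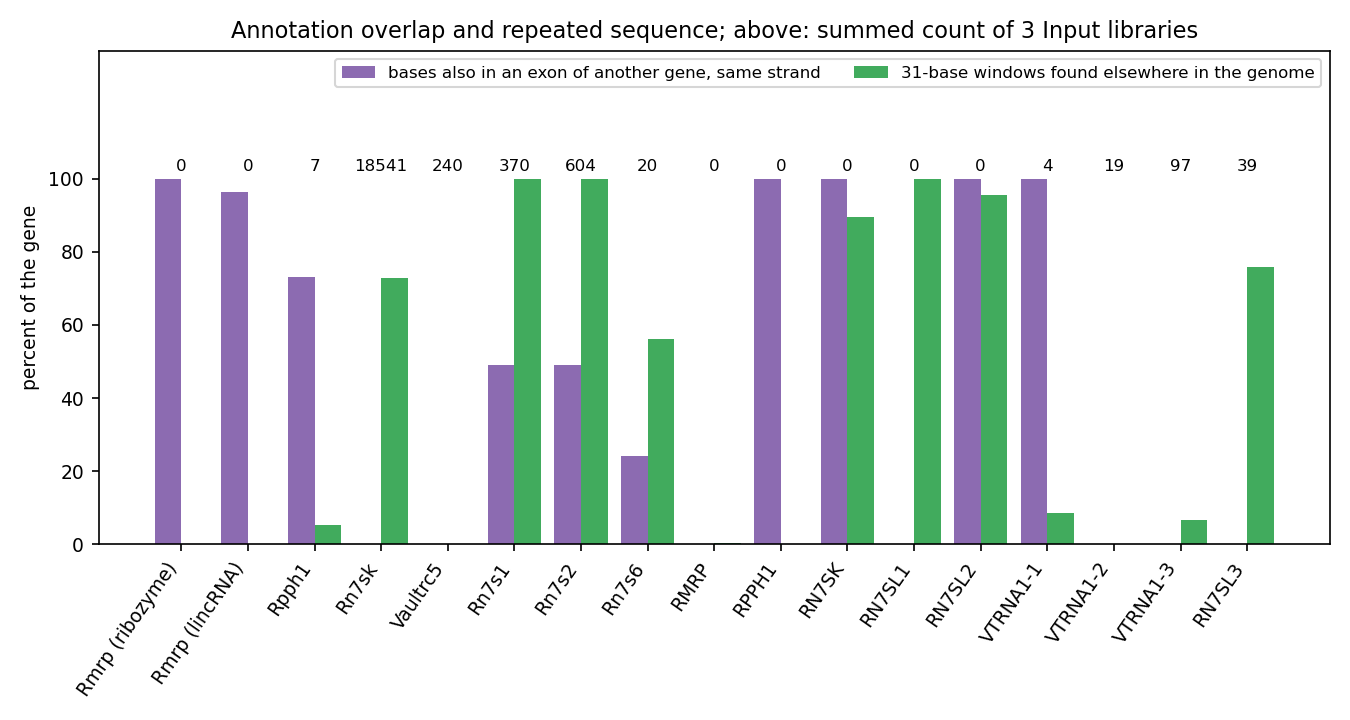
For each member and counterpart, the percent of its bases in an exon of another gene of the same strand (purple) and the percent of its 31-base windows found elsewhere in the genome (green), with its summed Input count above. Of the 7 identifiers at 0, all but RMRP had a bar at or near 100, as did Rn7s1, Rn7s2 and VTRNA1-1, which had counts. The record covering VTRNA1-1 was not among the counted genes. Rn7sk with 18541 counts had no annotation overlap but 72.8% recurring windows.

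The 2 tested genes nearest to each expressed member, by root mean square difference of log2(CPM + 1) over the 6 libraries of a line, were 4930519F16Rik (0.136) and Ints1 (0.146) for Rn7sk, 3010001F23Rik (0.214) and Gm37194 (0.263) for Vaultrc5, and ENTPD3 (0.0188) and CFAP107 (0.0235) for VTRNA1-3. Ints1 encodes a subunit of Integrator, the complex that ends transcription of small nuclear RNAs. For the thinly counted vault RNAs such likeness is mostly likeness of a few counts.

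The genes of the proteins that bind, make or modify these RNAs were counted well in mESC. Of 64 tested genes on 8 lists, 2 of them Y RNA genes, 57 were lower in IP, 2 were higher and 5 were not called, beside 42.1% of all tested genes lower and 39.9% higher. Their median log2 difference was -1.87, beside -0.17 over all tested genes. By library size alone 32 were lower and 5 higher, beside 24% and 49.1% of all genes, with a median of -0.9 beside 0.80. With Input thinned to IP depth, 40 of the genes could be tested, of which 12 were lower and 4 higher, beside 22.6% and 37% of all genes tested.

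For RNase P and MRP all 10 tested protein genes were lower in mESC IP, at a median of -2.08, but 6 by library size alone and 1 of 4 with thinned Input. Rpp14 was least so at -0.98 (31.3, 32.4 and 32.7 CPM in Input, 19, 44.2 and 30.4 in IP), at 0.00 by library size alone and 0.08 above Input when thinned. Rpp38 stood at -3.23 on 2 IP counts. For 7SK, all 7 genes of the snRNP and of P-TEFb were lower, at a median of -1.88, from Hexim2, which holds P-TEFb inactive, at -2.83 to Mepce, the methyltransferase that caps 7SK, at -1.28, or -0.79 without IP replicate 2 (edgeR adjusted p = 0.0589). By library size alone 4 of the 7 were lower, and with thinned Input 2 of 4. For the signal recognition particle all 8 were lower, at a median of -1.96, whereas by library size alone 2 were lower and 1 higher, and with thinned Input 1 was lower and 1 higher of 3. Srp68, which binds 7SL with Srp72, was nearest to 0 at -0.56 with TMM factors but 0.41 higher by library size alone. Srp54b had 31, 39 and 42 Input counts and none in IP, where an equal share would have given fewer than 3.

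The vault, Ro and La list departed from the others, with 2 of 5 higher, 2 lower and a median of 0.38. Parp4, the vault poly(ADP-ribose) polymerase, had 17.2, 15.7 and 15.8 CPM in Input and 63.4, 78.2 and 96.2 CPM in IP. The log2 difference was 1.34 (SE 0.19, edgeR adjusted p = 7.05e-06). It stayed positive under each scaling, from 0.89 without the count filter to 2.67 with thinned Input. Mvp, the major vault protein, was higher by 0.86 (edgeR adjusted p = 0.0115). Without any 1 of the Input libraries, or without IP replicate 2, or with the replicate block, 1 of the 5 genes rather than 2 was called higher, and without the count filter the median was -0.07. Tep1 stood at 0.38 and was not called. Ssb, the La protein that binds the 3′ ends of new Pol III transcripts, was lower at a log2 difference of -2.08, at -1.11 by library size alone and at -0.52 with thinned Input, where the call was lost (edgeR adjusted p = 0.141).

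Of the genes for Pol III itself, 11 of 13 core subunits were lower and 2 were not called, at a median of -1.48 (6 lower by library size alone and 2 of 12 with thinned Input), with Polr3d at -2.44 and Polr3gl at -0.60 (edgeR adjusted p = 0.125), the latter 0.38 above Input by library size alone. Of 17 initiation factors 16 were lower, at a median of -2.14. The exception was Gtf3c5, a subunit of TFIIIC, at -0.26 (edgeR adjusted p = 0.322), which stood at 0.71 by library size alone. Gtf3c2, with 33, 46 and 45 counts in Input, had none in IP, fewer than 3 being due at an equal share. Nsun2, with 175, 179 and 181 CPM in Input and 69.7, 107 and 103 CPM in IP, was lower at -1.89 (SE 0.13, edgeR adjusted p = 1.78e-09). Trdmt1, also an RNA cytosine methyltransferase, was lower at -1.12 (edgeR adjusted p = 0.0175), a call lost without any 1 Input library, without IP replicate 3 (-0.67), with the replicate block and by library size alone.

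In K562 the same lists were mostly not called. Of 58 tested genes 7 were lower, 5 higher and 46 not called, beside 16.8% of all tested genes lower and 15.0% higher, and their median of -0.28 stood beside -0.17 over all genes. Fewer than 3 IP counts were due at an equal share for 12 of the 58. By library size alone 6 were higher and 2 lower.

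The 5 higher genes included SRP14, which binds the Alu domain of 7SL. It had 5.39, 5.11 and 5.54 CPM in Input and 46.3, 35.9 and 43 CPM in IP, a log2 difference of 2.74 (SE 0.57, edgeR adjusted p = 2.49e-05). SSB was higher by 1.55 (edgeR adjusted p = 3.93e-06) at 32.8 ± 1.32 CPM in Input and 112 ± 11.9 CPM in IP (SD, n = 3). CDK9, the kinase of P-TEFb, was higher by 1.15 (edgeR adjusted p = 0.00324), but by 0.67 without IP replicate 3 (adjusted p = 0.265). MVP was higher by 2.72 on 5 IP counts (edgeR adjusted p = 0.00933), and without IP replicate 2 by 2.04 (adjusted p = 0.266). It passed the count filter only through its IP libraries, so its call is no support for a direction. POLR1C was higher by 0.81 (edgeR adjusted p = 0.0403), and no core subunit was called higher without Input replicate 2 or 3, without IP replicate 1 or 3, without the count filter, with thinned Input or with the replicate block. SSB, POLR1C and PARP4, and Mvp and Tep1 in mouse, were named after their values were seen.

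The 7 lower genes included PARP4 at -0.79 (edgeR adjusted p = 0.0016), opposite in sign to mouse Parp4, and RO60, which binds misfolded noncoding RNAs, at -1.22 (edgeR adjusted p = 0.00544) but -0.88 without IP replicate 2 (adjusted p = 0.126). CCNT1, the cyclin partner of CDK9, was lower at -1.02 (edgeR adjusted p = 0.0298) and TRDMT1 at -1.73 (edgeR adjusted p = 0.0152), and neither was called by library size alone. CCNT1 also lost its call without IP replicate 1 (-0.88) or 3 (-0.97), and TRDMT1 without IP replicate 2 (-1.10). NSUN2 stood at -0.28 (edgeR adjusted p = 0.371) with 124 ± 1.81 CPM in Input and 118 ± 16.4 CPM in IP (SD, n = 3). RPP14 had 85, 79 and 72 Input counts and 0 in each IP library, and was not called (edgeR adjusted p = 0.101). POLR3D, at -1.65, and SRP19, at -0.88, were the lowest of their lists and were not called, nor were RPP40 at 0.74, POLR3GL at 0.83, SNAPC2 at 1.44 and BRF2 at -1.20, and all 6 had at most 5 IP counts.

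Between the lines, 60 list genes that share a symbol could be tested for a difference of IP over Input (interaction of line and library kind in edgeR). Of these, 6 were higher in K562 and 2 lower, beside 9.73% and 19.6% of 14053 shared genes (29.4% in all). SRP14, SSB, CDK9 and POLR1C were among the 6, and PARP4 and TEP1 were the 2 lower ones.

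**Figure D5:**
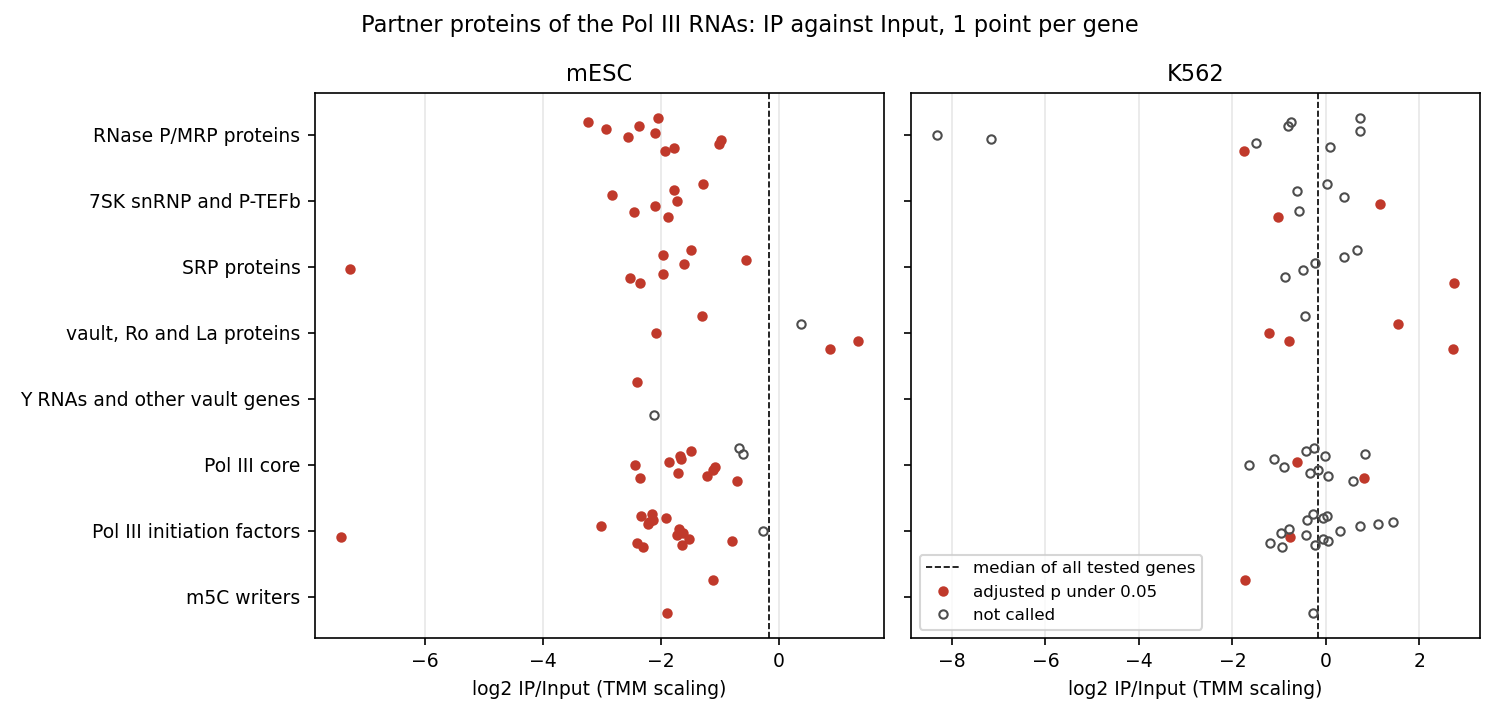
Log2 difference of IP and Input with TMM factors for each tested partner gene (points), by list and cell line, with filled points for adjusted p under 0.05 and a dashed line at the median of all tested genes (-0.17 in both lines). In mESC 57 of 64 points were called lower (32 by library size alone) with Parp4 and Mvp to the right, whereas 46 of 58 were not called in K562, and points far to the left had 0 IP counts.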

How the data were processed

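Fragmented caRNA of mESC and K562 was sequenced with a stranded total RNA kit before and after anti-m5C pull-down. The authors deposited raw HTSeq read counts per gene for 12 libraries and peak lists for the 3 mESC IP libraries. Their methods and processing notes name Trimmomatic 0.39, HISAT2 2.1.0 against mm10 or hg38 with spike-ins, Picard removal of duplicates before peak calling, SAMtools 1.16.1 and MACS2 run per strand. The counting mode, its use of strand and duplicate removal before counting are not given in the sources used here, so counts of overlapping, antisense or near-identical genes are uncertain. Peaks carry no usable score.

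Genes were matched by identifier to GENCODE M21 (GRCm38) and 44 (GRCh38), other releases than the study's, and 99.9% of mouse and 99.2% of human identifiers matched. HTSeq summary lines, 19.0% to 19.3% of records in mESC Input, 71.4% to 71.7% in mESC IP, 26.0% to 26.2% in K562 Input and 60.7% to 61.4% in K562 IP, stayed out of library sizes. IP was tested against Input on the whole table of each line with edgeR 4.0.16 in R 4.3.3 (quasi-likelihood, TMM, filterByExpr, Benjamini-Hochberg at 0.05, without a replicate block), and the difference between lines as an interaction over genes sharing a symbol. The SE was the absolute log2 difference over the square root of F. CPM ratios used library sizes alone, with exact Clopper-Pearson 95% intervals that, like floors of 3 counts, cover counting error only, since PCR copies were not marked by molecular identifiers. Single values were compared by exact two-sided permutation (SciPy 1.17.1). Alternatives were RLE and library size scaling, no filter, DESeq2 1.42.0, Input thinned to IP depth, the replicate block and leaving out each library.

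K562 Input replicates 1 and 2, and 1 and 3, differed by less than sampling noise over genes (chi-square per degree of freedom 0.912 and 0.918), but differed over 20 bins of GC content (27.2 and 18.3), and were kept as 3 libraries. The fit was tested on simulated data: at fold 4, 200 of 200 changed genes were recovered among 16660 genes for mESC IP vs Input, with 4.31% of calls false, and 200 of 200 among 13596 for K562, with 7.41% false. Changed genes were drawn only from those due at least 20 counts per IP library, and no others changed. The simulation therefore does not cover thinly counted members and list genes, nor a table like that of mESC, where 82.0% of genes were called.

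Members and lists were chosen with earlier results of these data known. Named were all members, genes overlapping them and the nearest protein-coding gene, the tested gene at each end of each list, and for members with a mean of at least 1 CPM the 2 genes nearest in level. Spike-ins were not used here.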

Additional observations from a re-analysis of the deposited data

Results flagged for a closer look

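These list genes differed between the lines by the interaction test, given as K562 minus mESC on the log2 scale. The difference comes from a joint fit with its own scaling, so the values given above for each line do not subtract to it. SRP14, a 7SL-binding protein, differed by 3.98 (SE 0.81, edgeR adjusted p = 0.000339), and by 3.05 with thinned Input (edgeR adjusted p = 0.0701). Without 1 library it ranged from 3.35 to 6.06, the latter without mESC IP replicate 1. SSB, the La protein, differed by 2.51 (SE 0.41, edgeR adjusted p = 1.63e-05). CDK9 differed by 2.13 (SE 0.51, edgeR adjusted p = 0.00191), and by 1.62 without K562 IP replicate 3 (edgeR adjusted p = 0.0526). PARP4 went the other way, by -3.26 (SE 0.28, edgeR adjusted p = 1.23e-10) and kept this sign in all 18 alternatives. POLR1C, at 2.03 (edgeR adjusted p = 0.00353), and TEP1, at -1.96 (edgeR adjusted p = 0.000907), named after their values were seen, differed too, and alternatives were not run for these 2. Species, cell type and sequencing depth differ together between the lines and cannot be told apart. Human RMRP, RPPH1 and RN7SK were at 0, so no value of this test is given for them.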

How the results depend on the processing

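Over 71 results, 810 values under alternative settings were computed, of which 663 kept their direction and side of the threshold, 78 moved, 35 lost and 9 gained a call, and 25 changed sign. The causes were not tested beyond what each setting itself removes. Called genes numbered 16591 in mESC, 4627 in K562 and 4125 for the difference between lines. They came to 6138, 543 and 1849 with Input thinned to IP depth, where 10284, 3187 and 8262 genes could be tested, and to 8237 in K562 without the count filter, where 31713 were tested. Leaving out 1 library gave 15245 to 16034, 3562 to 4511 and 3210 to 4357. Of the calls, 48.7% were higher in IP in mESC and 47.1% in K562, and 67.2% and 64.7% by library size alone. The ratio of member shares, 1.27 in mESC and 1.01 in K562, became 0.446 and 0.536 over all counted records, and lay between 1.18 and 1.4 and between 0 and 1.51 without 1 library, the 0 being without K562 IP replicate 3, which held the only member read.

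By library size alone the sign turned for Rn7sk (0.36), Vaultrc5 (0.56), Polr3gl (0.38), Gtf3c5 (0.71), Srp68 (0.41) and VTRNA1-3 (0.16), as the median gene moved from -0.17 to 0.80 in mESC. With thinned Input it turned for Rn7sk (0.74), Polr3gl (0.45), Gtf3c5 (0.98), Rpp14 (0.08), Srp68 (0.90) and NSUN2 (0.37). VTRNA1-3 stood at 0.07 with RLE factors and 0.18 in DESeq2. Without 1 library, Vaultrc5 ranged from -0.89 to 0.25, Gtf3c5 from -0.47 to 0.09, VTRNA1-3 from -7.30 to 0.57, POLR3GL from -7.41 to 1.46 and RPP40 from -0.32 to 1.37, the values of -7.30 and -7.41 being fitted with 0 IP counts. Rn7sk stayed between -0.69 and -0.44 and Rn7s2 between 1.36 and 1.71.

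Whether replicate numbers shared by Input and IP pair the samples was not settled. Correlations of same-numbered deviations were small, at 0.0273, 0.0183 and 0.0269 in mESC and -0.00666, 0.0109 and 0.0219 in K562. Such values cannot decide it, since IP counts were few. With a replicate block 15435, 3995 and 4035 genes were called, Rn7sk stood at -0.64 and Rn7s2 at 1.46, and Trdmt1, Srp68 and CCNT1 lost their call among the genes at the ends of the lists. Each mESC IP library correlated best with its own number, a hint from the data only, whereas K562 IP replicate 1 did not. The number of mouse members with a peak in all lists did not change on either strand, within 150 bp or without any 1 list. IP depth limits most members: only Rn7sk among them had more than 6 IP counts.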

Other observations

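Y RNAs, small Pol III transcripts that bind Ro60 and La, can be set beside the members. In mESC Rny3 had 87, 110 and 123 counts in Input and 0, 2 and 0 in IP, and was lower at -2.41 on the log2 scale (edgeR adjusted p = 0.0159), a call lost by library size alone (-1.44, edgeR adjusted p = 0.181) and without Input replicate 3 or IP replicate 1 or 3. Rny1 had 40, 55 and 36 Input counts and 1 IP count in all, and was not called (edgeR adjusted p = 0.0983). Their summed CPM ratio was 0.389 (0.08 to 1.15), and the IP values lay below the Input values (exact permutation p = 0.1, two-sided, the smallest possible), whereas the mouse 7SL genes stood at 4.53. In K562, 756 records named Y_RNA had 57, 52 and 52 Input counts and 2 IP counts, a ratio of 1.35 (0.162 to 4.95), so no difference was detectable.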
